A study of Mus musculus with 8 samples.

Results

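Nuclear genes of the mitochondrial respiratory chain and of ATP synthase were followed in striatal RNA of adult female mice with 2 intact copies of Brd2 or with 1. They were taken from the non-control probes of the array by the start of the gene name: the Nduf a, b, c, s and v families, Sdha to Sdhd, the Uqcr genes, Cyc1, Cox4 to Cox8 and Atp5. This gave 91 genes with 135 probes, of 30118 names and 39429 probes on the array, and the brightest probe stood for each gene. By textbook assignment 36 of them encode subunits of complex I, 4 of complex II, 9 of complex III, 11 of complex IV and 15 of complex V. A further 7 are tissue isoforms of complex IV subunits, and 9 are assembly factors or other genes related to the chain or only by name. Ndufa4 was counted with complex IV, where its protein is now placed. Genes of the mitochondrial genome are not matched by these names and are given apart.

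The wildtype mice had both Brd2 copies intact, and the heterozygous mice (Brd2+/-) carried a gene-trap insertion in 1 copy. All were adult C57Bl/6j females from crosses between heterozygous parents after repeated backcrossing, with no treatment named, and their age is given only as adult. The trap is carried in every cell, so a difference need not arise in the striatum. There were 4 samples per genotype on 4 two-colour arrays, and each array held 2 samples of 1 genotype, replicates 1 and 3 in the dye Cy3 and replicates 2 and 4 in Cy5. The labels do not tell whether a sample was 1 mouse or a pool, and p-values therefore reflect only the spread among these samples, which may be technical. Males were not analysed here.

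The respiratory chain passes electrons from NADH (through complex I) and succinate (through complex II) to ubiquinone, then through complex III and cytochrome c to complex IV, which reduces oxygen. Complexes I, III and IV pump protons across the inner mitochondrial membrane, and complex V, ATP synthase, uses the gradient to make ATP. Neurons depend on this supply to keep up their ion gradients. Most subunits are encoded in the nucleus, and a few core ones in the mitochondrial genome. Many nuclear subunit genes are known targets of the factors NRF1, GABP (an ETS factor) and YY1.

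Promoter windows from the start regions of RefSeq transcripts (build GRCm38.p6) were found for 74 of the 91 genes. All 3 motifs below were read on both strands. The NRF1 motif GCGCATGCG was in 12.2% of these genes (9 of 74) and in 1.95% of all 27025 genes of the table. The ETS motif CCGGAAG was in 23.0% (17 genes) against 9.93%, and the YY1 motif AAGATGGCG in 10.8% (8 genes) against 1.64%. In all, 29 of the 74 genes held at least 1 of them. The median GC content was 58.0% in the windows of the 74 genes and 52.7% in all windows of the table. Of the 9 genes with an NRF1 match, 2 belong to complex I, 2 to complex III, 1 to complex IV, 3 to complex V and 1 to the assembly factors. A match describes the letters of a window and is no measured binding site. The median difference between genotypes (heterozygous minus wildtype, log2) was -0.04 over the genes with the NRF1 motif and 0.06 over those without. It was -0.01 with and 0.06 without the ETS motif, and -0.06 with and 0.06 without the YY1 motif. The windows of 1 gene with an NRF1 match before its start from each of complexes I, III, IV and V, and of Uqcrc1 and Cox5a, whose expression is described in detail below, are printed 5′ to 3′ with matches in capitals. NRF1 matches on both strands overlap and show as 1 stretch of capitals. The NRF1 match began 60 bases before the start site in Ndufa11, 162 in Cox6a1, 50 in Atp5k and 5 in Uqcr11. The ETS match began 66 bases before the start in Uqcr11 and 16 before it in Cox6a1, and lay 12 bases past it in Atp5k. The printed windows end 30 bases past the start, before the end of the windows searched. The Uqcrc1 window held an NRF1 match 30 bases past the start, so it lies just outside the printed letters, and 6 of the 8 genes with the YY1 motif had no match wholly within the printed stretch. The Cox5a window held none of the 3 motifs.
Ndufa11 (complex I, chr17:56717512-56717791, plus strand): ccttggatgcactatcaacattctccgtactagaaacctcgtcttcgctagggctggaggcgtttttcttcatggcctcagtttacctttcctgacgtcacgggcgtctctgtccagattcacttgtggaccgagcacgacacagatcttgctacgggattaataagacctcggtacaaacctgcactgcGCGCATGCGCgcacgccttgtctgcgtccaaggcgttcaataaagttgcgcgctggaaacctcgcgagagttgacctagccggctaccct
Uqcr11 (complex III, chr10:80406792-80407071, minus strand): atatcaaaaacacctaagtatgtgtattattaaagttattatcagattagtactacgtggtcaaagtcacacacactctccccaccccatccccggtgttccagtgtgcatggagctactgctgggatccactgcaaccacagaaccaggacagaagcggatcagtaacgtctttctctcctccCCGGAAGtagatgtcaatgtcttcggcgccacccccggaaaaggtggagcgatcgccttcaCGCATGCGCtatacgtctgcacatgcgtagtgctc
Cox6a1 (complex IV, chr5:115348929-115349208, minus strand): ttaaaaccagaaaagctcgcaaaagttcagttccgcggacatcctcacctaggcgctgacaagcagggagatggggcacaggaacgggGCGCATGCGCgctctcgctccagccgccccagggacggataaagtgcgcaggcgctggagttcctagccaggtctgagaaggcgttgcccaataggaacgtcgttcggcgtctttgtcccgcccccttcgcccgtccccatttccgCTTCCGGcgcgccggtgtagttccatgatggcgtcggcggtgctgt
Atp5k (complex V, chr5:108434370-108434649, minus strand): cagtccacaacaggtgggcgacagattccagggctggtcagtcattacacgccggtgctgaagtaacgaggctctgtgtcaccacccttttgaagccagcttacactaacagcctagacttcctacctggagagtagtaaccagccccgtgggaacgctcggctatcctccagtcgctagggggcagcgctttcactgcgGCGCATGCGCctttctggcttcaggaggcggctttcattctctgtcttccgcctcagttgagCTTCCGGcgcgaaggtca
Uqcrc1 (complex III, chr9:108936398-108936677, plus strand): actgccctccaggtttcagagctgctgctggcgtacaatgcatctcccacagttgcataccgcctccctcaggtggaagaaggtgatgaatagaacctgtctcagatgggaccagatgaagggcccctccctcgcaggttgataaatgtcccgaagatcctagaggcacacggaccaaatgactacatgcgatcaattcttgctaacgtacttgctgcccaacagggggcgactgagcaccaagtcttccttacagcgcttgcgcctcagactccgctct
Cox5a (complex IV, chr9:57520982-57521261, plus strand): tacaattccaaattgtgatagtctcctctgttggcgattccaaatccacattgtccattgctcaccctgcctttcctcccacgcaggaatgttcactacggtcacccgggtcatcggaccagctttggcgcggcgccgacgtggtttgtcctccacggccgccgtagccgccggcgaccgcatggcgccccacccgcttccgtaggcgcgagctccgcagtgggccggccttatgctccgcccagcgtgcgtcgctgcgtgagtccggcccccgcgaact

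Levels are normalized log2 intensities with the dye effect removed, and differences are heterozygous minus wildtype with the standard error (SE) of a limma fit over 19720 genes. Between 37.7% (heterozygous replicate 3) and 75.5% of spots per sample were well above background, with the lower shares in Cy3. The other Cy3 samples stood at 43.6% to 47.6%. The number of arrays limits the precision. Brd2 measured 12.97, 13.11, 12.52 and 12.82 in the wildtype replicates 1 to 4 and 11.79, 11.96, 12.44 and 11.83 in the heterozygous ones. The groups did not overlap, heterozygous samples averaged 55.4% of the wildtype level, and p was 0.0286 in an exact two-sided permutation test, where no smaller value is possible. That test shuffled single samples and took no account of the arrays they shared. In the fit the Brd2 difference of -0.85 (SE 0.193) had an adjusted p of 0.427 (limma, Benjamini-Hochberg). The library labelled heterozygous replicate 3 stood at 75% of the wildtype mean for Brd2, the highest heterozygous value, though below every wildtype sample. Whether its label or its dissection is at fault was not tested. Values of the members and lists are also given without it where that turns a direction or moves a value by over 1.5 times. The tissue label names the prefrontal cortex and the striatum, the sample descriptions the striatum only. Markers of striatal projection neurons were measured in every sample (14 of 14 genes tested, 13 above background in all 8), so the labelled tissue was present. Their median difference was -0.43, with all 14 lower in the heterozygous samples, and -0.16 without heterozygous replicate 3, with 10 lower and 4 higher. That of 9 markers of cortical excitatory neurons was 1.17 with and without that library, with 8 higher. The median differences of the other lists were 0.55 for choroid plexus, 0.10 for oligodendrocytes, -0.03 for astrocytes, -0.15 for microglia, 0.00 for endothelial cells and pericytes, -0.62 for blood cells and 0.97 for fast-spiking interneurons. Without that library they were -0.01, -0.05, -0.04, 0.04, -0.04, -0.66 and 0.80. The part of tissue makeup in the results below was not tested, and fewer cells of a type and less RNA per cell cannot be told apart in such tissue.

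No respiratory chain gene passed the test between genotypes. Of the 91 genes, 90 were tested, since Cox8c, a testis isoform of complex IV, was above background in too few samples. Of these 90, 0 had an adjusted p under 0.05 (smallest 0.507; limma, Benjamini-Hochberg), against 0 of all 19720 genes (0.0%; smallest 0.134). At an unadjusted p under 0.05, 3 members were higher in the heterozygous samples (3.33%, against 3.91% of all genes) and 1 was lower (1.11%, against 4.8%). Both shares were below the background of the array. Among the 68 members with a value in all 8 samples, the groups did not overlap for 2 that were higher (2.94%, against 3.26% of all genes with complete values) and 1 that was lower (1.47%, against 5.44%). The median difference was 0.05 over the 90 members, with 53 higher and 37 lower, and -0.02 over all genes, and the members' median turned to -0.19 in the deposited value table, -0.10 with processed signals centred on the 75th percentile, -0.09 with Cy5 samples only, -0.02 without wildtype replicate 3 and -0.05 without heterozygous replicate 3.

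The intervals bound what the data allow. The 95% interval lay within 1 log2 unit of 0, a change of 2-fold, for 85 of the 90 members, and within 0.5 for 42. Over all genes these counts were 17785 and 9511 of 19720. The 5 members whose intervals reached past 2-fold were Ndufa11, Ndufa4, Cox7a1, Cox8b and Ndufaf2. A p that misses the threshold does not show that a gene had the same level in both genotypes.

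**Figure D1:**
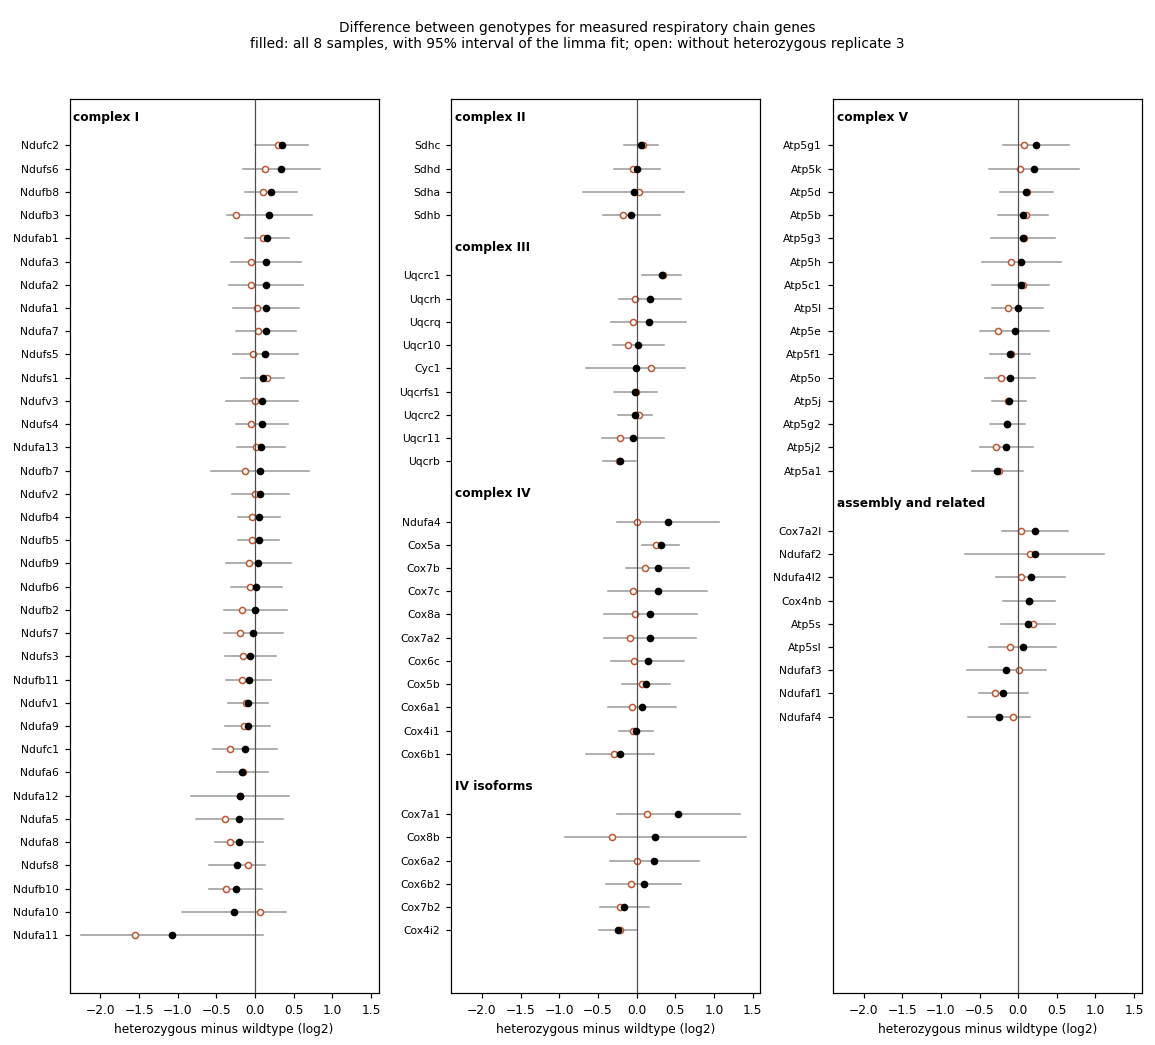
Difference between heterozygous and wildtype samples (log2) for the tested members, grouped by complex. Filled points with lines are the estimates with 95% intervals from all 8 samples, and open points are the estimates without heterozygous replicate 3. Most points lie near 0, and the open points lie to the left of the filled ones for most genes of complex I and for 11 of 11 of complex IV.

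Complex I oxidises NADH. Its 7 nuclear core subunits carry the flavin and the iron-sulfur clusters, and its accessory subunits hold the complex together. The core subunits differed little between genotypes. Ndufv1, which binds NADH and the flavin, measured 15.03, 15.09, 14.83 and 15.09 in the wildtype samples and 15.01, 14.80, 14.98 and 14.88 in the heterozygous ones (difference -0.09, SE 0.111). Ndufs1, which carries iron-sulfur clusters, measured 14.11, 13.91, 14.15 and 14.22 against 14.26, 14.10, 14.08 and 14.35 (0.10, SE 0.119). The 2 groups overlapped for both. Ndufv2 differed by 0.07 (SE 0.156), over 3 wildtype values after an outlier spot was left out, and by -0.00 without heterozygous replicate 3. The difference was -0.06 (SE 0.142) for Ndufs3 and -0.02 (SE 0.166) for Ndufs7, and without that sample it was -0.15 and -0.19, and 0.16 for Ndufs1. Ndufs8, which also carries iron-sulfur clusters, had the core subunits' lowest difference, -0.23 (SE 0.159, adjusted p = 0.676 in limma). Its interval ran from -0.60 to 0.13, and its heterozygous replicate 3, at 11.65, was below the other 7 samples, which lay between 12.03 and 12.47. Without it the Ndufs8 difference was -0.10.

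Among the 29 accessory subunits of complex I, 19 were higher and 10 lower, with a median difference of 0.05, and 8 were higher without heterozygous replicate 3, with a median of -0.05. Ndufc2, an accessory subunit of the membrane arm, measured 13.78, 13.83, 14.18 and 14.28 in the wildtype samples and 14.30, 14.24, 14.50 and 14.41 in the heterozygous ones. Wildtype replicates 1 and 2 were low, and wildtype replicate 4 overlapped the heterozygous range. Its difference of 0.34 (SE 0.148) had an unadjusted p of 0.0487 in limma and an adjusted p of 0.573. Without heterozygous replicate 3 it was 0.29 (SE 0.158). Ndufs6, needed late in the assembly of the complex, measured 14.80, 14.87, 14.85 and 15.39 in the wildtype samples and 15.09, 15.08, 15.85 and 15.25 in the heterozygous ones. Wildtype replicate 4 and heterozygous replicate 3 stood above the rest of their groups, and the difference of 0.34 (SE 0.217) was 0.13 without the latter.

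Ndufb10, an accessory subunit of the membrane arm, measured 15.22, 15.36, 15.06 and 15.26 in the wildtype samples and 14.81, 14.79, 15.32 and 14.995 in the heterozygous ones. Heterozygous replicates 1, 2 and 4 lay below every wildtype sample, and replicate 3 lay within the wildtype range. The difference was -0.25 (SE 0.148, adjusted p = 0.652 in limma) with replicate 3 and -0.38 (SE 0.112, adjusted p = 0.362) without it. Ndufa11, a membrane subunit of complex I, had values in only 2 heterozygous samples, 10.29 and 11.25, after outlier spots were left out. Its wildtype values were 11.28, 11.60, 12.42 and 12.10, and the difference of -1.08 (SE 0.479) had an interval from -2.25 to 0.10. Its probe lies near the 5′ end of the transcript, at base 56. Ndufa10 measured 11.29 in heterozygous replicate 3 and 12.17 to 12.66 in the other 7, and its difference of -0.27 (SE 0.292) was 0.06 without that sample. The complex I median of 0.04 lay between -0.20 and 0.19 under the other processing settings. Ndufa13, which is also known as a regulator of cell death, differed by 0.08 (SE 0.133), and Ndufb9 by 0.04 (SE 0.182). These were 0.01 and -0.08 without heterozygous replicate 3. Ndufab1, the mitochondrial acyl carrier protein, was above background in 2 samples of each genotype only.

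Complex II, succinate dehydrogenase, also belongs to the tricarboxylic acid cycle and has no subunit from the mitochondrial genome. None of its 4 genes stood apart between genotypes. Sdha, the flavoprotein, measured 13.94, 13.38 and 12.94 in wildtype replicates 1 to 3 and 13.34, 13.06, 13.38 and 13.75 in heterozygous samples, so that the groups overlapped (difference -0.04, SE 0.274). Its wildtype replicate 4 was left out as an outlier spot. Sdhb, the iron-sulfur subunit, differed by -0.07 (SE 0.156, 3 wildtype values). The membrane anchors Sdhc and Sdhd differed by 0.06 (SE 0.094) and 0.01 (SE 0.130). The intervals of Sdhb, Sdhc and Sdhd stayed within 0.5 log2 units of 0, and that of Sdha ran from -0.69 to 0.61. The differences were 0.03 for Sdha, -0.17 for Sdhb, 0.08 for Sdhc and -0.04 for Sdhd without heterozygous replicate 3.

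In complex III, ubiquinol-cytochrome c reductase, 2 of the 8 genes with complete values were separated between genotypes, in opposite directions. Over all genes with complete values, 3.26% were separate and higher and 5.44% separate and lower. Uqcrc1, a core protein of the matrix side, measured 13.49, 13.47, 13.71 and 13.69 in the wildtype samples and 13.92, 13.82, 13.89 and 14.03 in the heterozygous ones. Every heterozygous value was above every wildtype value. The difference was 0.32 (SE 0.109, interval 0.07 to 0.58), with an unadjusted p of 0.0179 in limma and an adjusted p of 0.512. It was 0.34 (SE 0.120) without heterozygous replicate 3. Its probe lies on the plus strand at chr9:108851008-108851487 (mm9, the coordinates of the files).

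Uqcrb, a small subunit that takes part in binding ubiquinone, was measured by 3 probes. The probe that stands for it gave 14.01, 14.00, 14.10 and 14.11 in the wildtype samples and 13.79, 13.82, 13.89 and 13.86 in the heterozygous ones. The groups did not overlap, and the spread within each was small. The difference was -0.22 (SE 0.092, interval -0.43 to -0.00), with an unadjusted p of 0.0468 in limma and an adjusted p of 0.566. The second probe gave 13.11, 13.12, 13.15 and 13.05 in the wildtype samples and 12.46, 12.66, 12.85 and 12.74 in the heterozygous ones. The third gave 12.82, 12.96, 13.10 and 12.91 against 12.43, 12.71, 12.59 and 12.36. In both of these the groups were again separate, with differences of -0.43 each. The 3 probes overlap one another on the minus strand (chr13:67001654-67001713, chr13:67001665-67001724 and chr13:67001691-67001750, mm9), so they are repeated readings of 1 stretch of the transcript. Without heterozygous replicate 3 the Uqcrb difference was -0.23 (SE 0.097).

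The median of complex III was -0.01, between -0.20 and 0.16 under the other processing settings. Its other 7 genes overlapped between genotypes. Uqcrc2, the partner core protein of Uqcrc1, measured 14.10, 14.02, 14.02 and 14.02 in the wildtype samples and 14.10, 14.02, 13.91 and 14.06 in the heterozygous ones (-0.02, SE 0.095). Uqcrfs1, the Rieske iron-sulfur protein, differed by -0.02 (SE 0.119), and Cyc1, which holds cytochrome c1, by -0.01 (SE 0.260, 2 wildtype values). The differences of Uqcrc2 and Cyc1 were 0.03 and 0.19 without heterozygous replicate 3. Uqcrh and Uqcrq, both small subunits, differed by 0.17 (SE 0.172) and 0.16 (SE 0.211). In both, heterozygous replicate 3 was the highest of the 8 samples, and without it the differences were -0.02 and -0.05.

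**Figure D2:**
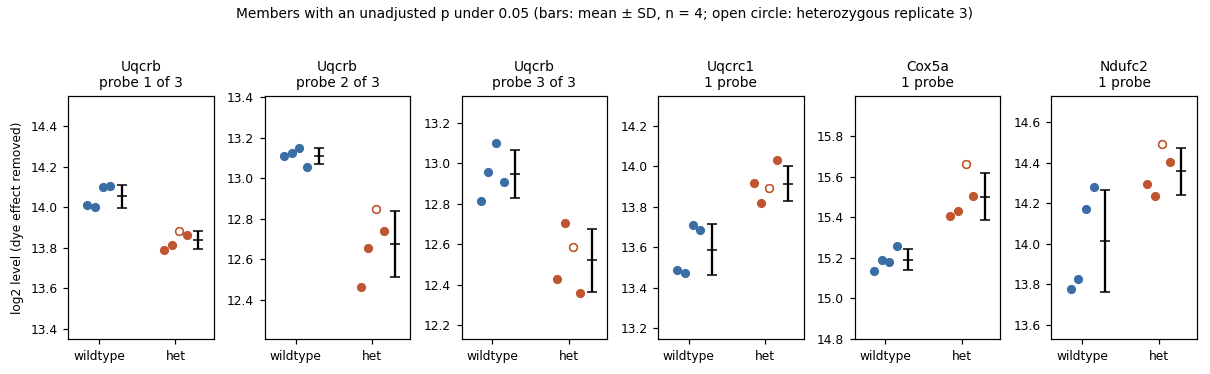
Log2 levels of the 4 members with an unadjusted p under 0.05, by genotype, with 3 probes for Uqcrb and 1 each for Uqcrc1, Cox5a and Ndufc2. Each panel spans the same range of log2 units, points are samples, and bars give the mean ± SD of 4 samples. The groups do not overlap for Uqcrb, Uqcrc1 and Cox5a, and they overlap for Ndufc2.

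Complex IV, cytochrome c oxidase, had the highest median difference of the 5 complexes, 0.17, with 9 of its 11 genes higher and 2 lower. The median was -0.04 without heterozygous replicate 3, with 4 higher, and -0.14 in the deposited value table, so its direction flips without that library and under that scaling. Cox5a, a subunit on the matrix side, was the only one of the 11 with an unadjusted p under 0.05. It measured 15.14, 15.19, 15.18 and 15.26 in the wildtype samples and 15.41, 15.43, 15.66 and 15.51 in the heterozygous ones. All heterozygous values were above all wildtype values. The difference was 0.31 (SE 0.102, interval 0.08 to 0.55), with an unadjusted p of 0.0160 in limma and an adjusted p of 0.507, and it was 0.25 (SE 0.095) without replicate 3. Its probe lies on the plus strand at chr9:57379593-57380141 (mm9).

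The remaining genes of complex IV overlapped between genotypes or lacked values. Cox7b measured 14.59, 14.77, 14.92 and 15.08 in the wildtype samples and 14.88, 15.11, 15.51 and 14.95 in the heterozygous ones. Its difference of 0.27 (SE 0.176) was 0.11 without replicate 3. Ndufa4 had values in heterozygous replicates 3 and 4 only, 15.21 and 14.67, against 14.74, 14.69, 14.06 and 14.64 in wildtype. Its difference of 0.41 (SE 0.270) came to 0.01 without replicate 3. Cox6b1, which faces the intermembrane space, differed by -0.21 (SE 0.189), and Cox6a1, a regulatory subunit, by 0.07 (SE 0.190). Cox8a, the smallest subunit, differed by 0.18 (SE 0.242, 2 heterozygous values). Without replicate 3, Cox6a1 differed by -0.06 and Cox8a by -0.02, the latter over 1 heterozygous value.

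Several subunits of complex IV exist as a ubiquitous form and a form known from heart, muscle, lung or testis. Cox4i1, the ubiquitous form of subunit 4, measured 16.02, 16.12, 16.06 and 16.00 in the wildtype samples and 15.97, 16.05, 16.15 and 16.02 in the heterozygous ones (-0.00, SE 0.095; -0.04 without heterozygous replicate 3). Its lung form Cox4i2 measured 10.20, 10.20, 10.10 and 10.01 against 9.91, 10.02, 9.81 and 9.80. Heterozygous replicate 2 overlapped the wildtype range, and the Cox4i2 difference of -0.24 (SE 0.105) had an adjusted p of 0.575 in limma. Without heterozygous replicate 3 it was -0.22 (SE 0.113).

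The heart and muscle form Cox7a1 measured 9.32, 9.75, 9.73 and 10.05 in the wildtype samples and 9.63, 10.20, 11.25 and 9.93 in the heterozygous ones. Heterozygous replicate 3 was far above the others, and the difference of 0.54 (SE 0.346) was 0.14 (SE 0.151) without it. The Cox7a2 probe, for the ubiquitous form, differed by 0.17 (SE 0.257), and by -0.08 without replicate 3. Cox8b measured 8.13, 8.79, 8.98 and 8.71 in the wildtype samples and 7.73, 9.16, 10.25 and 8.43 in the heterozygous ones, and its difference of 0.24 (SE 0.506) was -0.31 without replicate 3. Cox6a2, the muscle form of subunit 6a, differed by 0.23 (SE 0.249), Cox6b2, the testis form, by 0.09 (SE 0.209), and Cox7b2 by -0.16 (SE 0.129, 2 heterozygous values). Without replicate 3, Cox6a2 differed by 0.01 and Cox6b2 by -0.07.

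In complex V, 7 genes were higher and 8 lower, and the median difference was -0.01, between -0.25 and 0.03 under the other processing settings. Its F1 part is the catalytic head, and its Fo part and stalks carry the proton flow. Atp5a1, the alpha subunit of F1, measured 15.17, 15.09, 14.73 and 14.77 in the wildtype samples and 14.69, 14.52, 14.63 and 14.84 in the heterozygous ones. Wildtype replicates 1 and 2 were high and replicates 3 and 4 lay within or near the heterozygous range, and the difference was -0.27 (SE 0.144, adjusted p = 0.620 in limma). Atp5b, the catalytic beta subunit, measured 16.35 and 16.31 in the 2 wildtype samples with a value and 16.46, 16.34, 16.31 and 16.47 in heterozygous samples (0.06, SE 0.133). Atp5h, of the stalk, differed by 0.04 (SE 0.209), also over 2 wildtype values, and Atp5j, of the stalk, by -0.12 (SE 0.095). Atp5b differed by 0.10 and Atp5h by -0.09 without heterozygous replicate 3.

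The remaining F1 genes Atp5c1, Atp5d and Atp5e differed by 0.03, 0.11 and -0.05, and the remaining Fo and stalk genes Atp5f1, Atp5j2, Atp5k, Atp5l and Atp5o by -0.11, -0.15, 0.21, -0.01 and -0.11. None of these groups was separate. Without heterozygous replicate 3, Atp5c1 stood at 0.06, Atp5e at -0.26, Atp5j2 at -0.28, Atp5k at 0.02, Atp5l at -0.13 and Atp5o at -0.22.

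Subunit c, which forms the rotating ring, has 3 genes that encode the same mature protein. Their differences were 0.23 (SE 0.184) for Atp5g1, -0.14 (SE 0.097) for Atp5g2 and 0.06 (SE 0.181) for Atp5g3, and that of Atp5g1 was 0.07 without heterozygous replicate 3. A further Atp5g2 probe gave 0.88, over 1 wildtype value, so that the probes of this gene spanned 1.02, the widest range among the members. Of 29 genes with more than 1 probe above background in all samples, 13 had all probes on one side of 0, and the median range between probes of a gene was 0.15.

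The 9 assembly factors and related genes had a median difference of 0.13, with 6 higher and 3 lower, and 0.03 without heterozygous replicate 3, also with 6 higher. Ndufaf4, an assembly factor of complex I, measured 11.42, 11.29, 11.26 and 11.27 in the wildtype samples and 11.44, 11.07, 10.62 and 11.12 in the heterozygous ones. The difference of -0.24 (SE 0.174) was -0.07 without replicate 3, the lowest sample. Ndufaf1, a factor of the same pathway, differed by -0.19 (SE 0.138), and by -0.29 without replicate 3. Of the related genes, Cox4nb (now Emc8) shares only the name and encodes a membrane protein complex subunit of the endoplasmic reticulum.

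The library labelled heterozygous replicate 3 stood apart for much of the chain. It held the highest value of all 8 samples for 40 of the 68 members with complete values (58.8%), against 4198 of 18463 genes on the array (22.7%). Its median deviation from the wildtype mean of each gene was 0.29 in complex I, 0.30 in complex III and 0.47 in complex IV, and 0.06 in complex II and 0.07 in complex V. The other 3 heterozygous samples lay between -0.09 and -0.02 in complex I, between -0.06 and 0.02 in complex III and between -0.02 and 0.14 in complex IV. The wildtype samples lay between -0.09 and 0.12 in complex I and between -0.08 and 0.20 in complex IV, with replicate 4 at the top of both. Over all genes the medians lay between -0.03 and 0.01 in every sample. Within complex I the deviation of replicate 3 was 0.35 over accessory and 0.11 over core subunits.

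**Figure D3:**
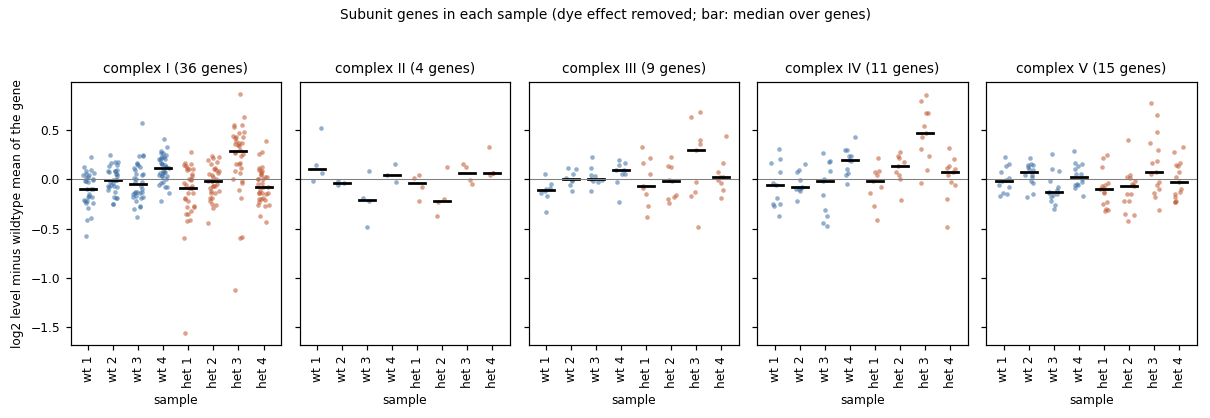
Deviation of each subunit gene from its wildtype mean (log2, dye effect removed) in each of the 8 samples, for complexes I to V. Points are genes and bars are medians. Heterozygous replicate 3 has the highest median in complexes I, III and IV, at 0.29, 0.30 and 0.47, and complexes II and V show no such gap.

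Without that library the medians were -0.06 in complex I, -0.01 in complex II, -0.02 in complex III, -0.04 in complex IV and -0.09 in complex V, and -0.05 over all 90 members, of which 32 were higher. Over all genes the median was -0.02. Again 0 members and 0 genes (0.0%) passed the threshold, with smallest adjusted p-values of 0.362 and 0.202 (limma, Benjamini-Hochberg). At an unadjusted p under 0.05, 9 of 90 members were lower (against 6.25% of 19709 genes) and 2 were higher (2.22%, against 4.96%). The 2 were Uqcrc1 and Cox5a. The 9 were Uqcrb, the complex I genes Ndufa5 (-0.39), Ndufa8 (-0.32), Ndufa11 (-1.56, 1 heterozygous value), Ndufb10 and Ndufc1 (-0.32), the complex V genes Atp5e (-0.26) and Atp5j2 (-0.28), and Ndufaf1. Of the 9, Uqcrb, Ndufa11, Ndufb10 and Ndufaf1 were also named by the rule given below, and the rest after their values were seen.

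Other measures moved with that library, though the cortical markers did not set it apart. Over 9 markers of cortical excitatory neurons (2 above background in all samples) its median deviation was 1.07. Heterozygous replicates 1, 2 and 4 stood at 1.885, 1.515 and 0.644 over the same markers. The deviation of replicate 3 was -1.08 over markers of striatal projection neurons and 0.49 over those of oligodendrocytes. It was 2.03 over those of choroid plexus (2 of 6 above background in all samples). Ttr, the transport protein of choroid plexus, measured 15.67 in replicate 3 and 10.90 to 13.64 in the other samples. Heterozygous replicate 2 stood at -0.66 over the striatal markers, -0.02 in complex I, 0.14 in complex IV and 0.47 in the complex IV tissue isoforms. Probe position moved with it too. Probes of the members start at a median base of 510 in their transcripts, against 1808 over all genes with a known start. Transcript lengths were not compared, so these starts do not place the probes near either end. The deviation of replicate 3 was 0.43 over the 45 members whose probes start below 510 and 0.09 over the other 45, with a Spearman correlation of -0.38 over 90 members that share 1 library. Over 18355 genes of the array it was 0.00, and other genes in the members' range of levels with probes below 510 had a median of -0.10 (n = 934). The part of either measure in the respiratory chain values of that library was not tested.

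**Figure D4:**
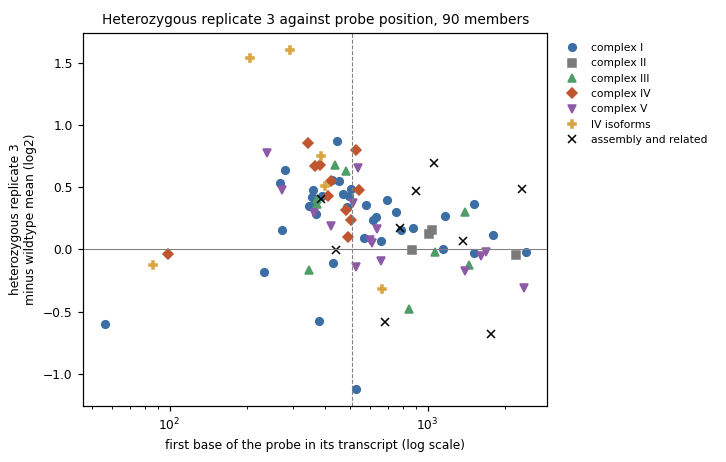
Deviation of heterozygous replicate 3 from the wildtype mean (log2) against the first base of the probe in its transcript (log scale) for 90 members, marked by complex. The dashed line is the median start of 510. Members to its left have a median of 0.43 and those to its right 0.09.

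Genes of the mitochondrial genome, which encode the other subunits of complexes I, III, IV and V, did not share that shift. The array names 13 of them, and their median deviation in heterozygous replicate 3 was -0.69, against -0.40 to 0.21 in the other samples. CYTB, the cytochrome b of complex III, measured 17.30, 16.66, 17.35 and 17.03 in the wildtype samples and 16.99, 17.17, 16.40 and 17.18 in the heterozygous ones. Replicate 3 was the lowest and the groups overlapped (difference -0.15, SE 0.230, with replicate 3 included). The other heterozygous values of CYTB lay within the wildtype range, and its difference without replicate 3 is not given here. COX3, of complex IV, measured 15.70 in replicate 3 and 16.74 to 17.52 in the other 7. Between genotypes, 4 of the 13 were higher and 9 lower, 0 passed the threshold, and the median was -0.12 with replicate 3 and 0.07 without. ND3 differed by -0.35 (SE 0.290), and by -0.65 without replicate 3. ND6, the only subunit gene on the other strand, differed by 0.84 (SE 0.334, adjusted p = 0.546 in limma) and was above background in 2 samples of each genotype only. Without replicate 3 the ND6 difference was 0.51. COX1 spread from 15.33 to 18.48 over the samples and had an SE of 0.749. CYTB and COX3 were named after their values were seen.

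Around the chain, 0 genes of the pathway lists passed the threshold. In each list 2 genes are named for its smallest p-values, so a separation of their groups is partly given by that choice. Over all genes with complete values, 3.26% were separate and higher and 5.44% separate and lower. Among 43 assembly factors (which include Ndufaf1 to Ndufaf4) 24 were higher and 19 lower, with a median of 0.01, and 0.04 without heterozygous replicate 3. Of the 40 with complete values, 0 were separate and higher and 2 separate and lower. Cox20, which guides a core subunit into complex IV, measured 11.71, 11.63, 11.50 and 11.58 in the wildtype samples and 11.08, 11.16, 11.34 and 11.27 in the heterozygous ones. The groups did not overlap (difference -0.40, SE 0.107, adjusted p = 0.440 in limma). Ecsit, a factor of complex I assembly, was separate too, at 12.67 to 13.13 in wildtype and 12.38 to 12.66 in heterozygous samples (-0.41, SE 0.141, adjusted p = 0.516).

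The 16 regulators of mitochondrial biogenesis had a median of 0.03, with 9 higher and 7 lower, and -0.01 without heterozygous replicate 3. Of the 15 with complete values, 2 were separate and higher and 1 separate and lower. Ppargc1a, the coactivator PGC-1 alpha, measured 10.57, 10.88, 10.83 and 10.85 in the wildtype samples and 10.99, 11.19, 11.87 and 11.34 in the heterozygous ones. All heterozygous values were higher, replicate 3 most of all, and the difference was 0.57 (SE 0.197, adjusted p = 0.516 in limma), or 0.36 without replicate 3. Tfb1m, a methyltransferase of the mitochondrial ribosome, was lower in all 4 heterozygous samples, at 9.06 to 9.18 against 9.37 to 9.54 (-0.29, SE 0.096, adjusted p = 0.509). The factors whose motifs were searched differed by -0.01 (Nrf1, SE 0.135), -0.29 (Gabpa, SE 0.152) and -0.14 (Yy1, SE 0.121).

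Glycolysis, which feeds the chain with pyruvate and NADH, had a median of 0.03 over 16 genes, with 9 higher, and 0.14 without heterozygous replicate 3, with 12 higher. Pfkl, the liver form of phosphofructokinase, measured 11.30, 11.44, 11.68 and 11.54 in the wildtype samples and 11.99, 11.99, 12.20 and 12.20 in the heterozygous ones (0.61, SE 0.122, adjusted p = 0.424 in limma). Tpi1, triosephosphate isomerase, measured 15.33, 15.42, 15.47 and 15.36 against 15.92, 15.74, 15.86 and 16.06 (0.50, SE 0.108, adjusted p = 0.424). Both were separate between genotypes. Of the 13 glycolysis genes with complete values, 3 were separate and higher and 0 separate and lower, against 3.26% and 5.44% of all such genes. The 18 genes of the tricarboxylic acid cycle had a median of -0.09, with 5 higher and 13 lower, and 0.07 without heterozygous replicate 3. Dlst, of the 2-oxoglutarate dehydrogenase complex, differed by 0.27 (SE 0.093) and Pdhx, of pyruvate dehydrogenase, by -0.20 (SE 0.123).

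The 76 genes of mitochondrial ribosomal proteins had a median of -0.05, with 26 higher and 50 lower, and -0.10 without heterozygous replicate 3. Mrps9 differed by -0.44 (SE 0.132) and Mrpl47 by -0.32 (SE 0.114), with adjusted p-values of 0.492 and 0.521 in limma. The 18 genes of protein import and quality control had a median of -0.11, and 0.01 without heterozygous replicate 3, with 10 higher. Of these, Tomm20, an import receptor, and Hspd1, a chaperone, differed by -0.23 (SE 0.127) and -0.25 (SE 0.141). Among 16 electron carriers and carriers of ATP, ADP and phosphate the median was 0.04, and 0.06 without heterozygous replicate 3. Cycs, cytochrome c itself, differed by -0.22 (SE 0.121). Coq7, of ubiquinone synthesis, differed by 1.54 (SE 0.332, adjusted p = 0.491), over 1 wildtype and 3 heterozygous values.

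**Figure D5:**
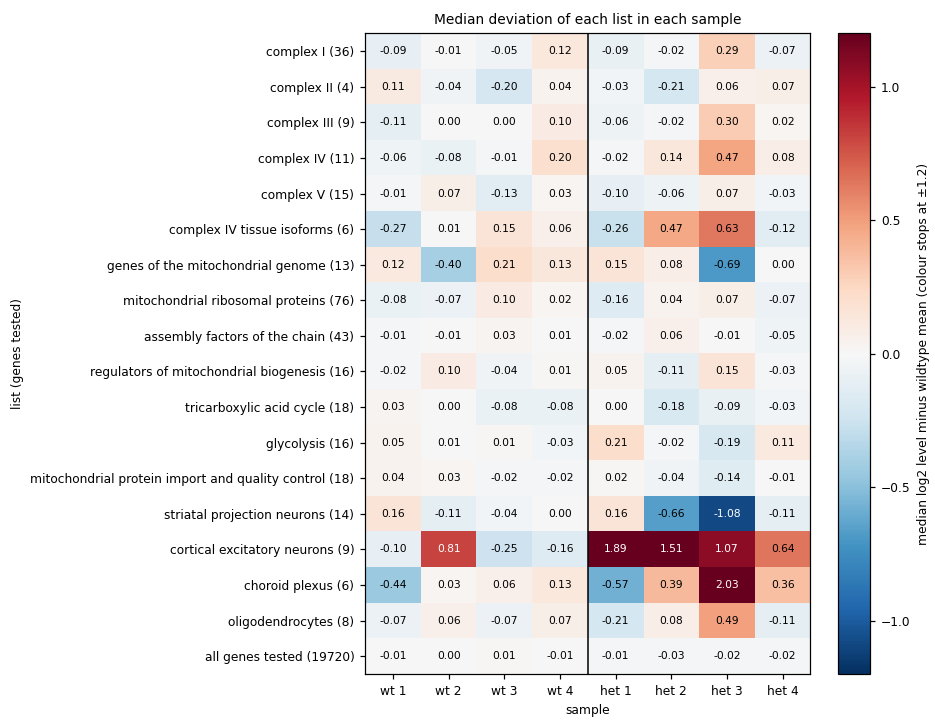
Median deviation from the wildtype mean (log2) of each complex, pathway list and marker list in each of the 8 samples, with the number of genes tested in brackets. In heterozygous replicate 3, complexes I, III and IV are at 0.29 to 0.47, the genes of the mitochondrial genome at -0.69, striatal projection neurons at -1.08 and choroid plexus at 2.03.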

How the data were processed

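RNA of 8 female mouse striatum samples, 4 per genotype, was read on 4 two-colour Agilent arrays. The deposited scanner files hold mean and background intensities per spot, written by Agilent Feature Extraction 10.7.3.1 per the file headers. A further deposited table of values holds a ratio, which matched each channel's background-subtracted median intensity divided by its column median within 0.0001, and it was used as an alternative. The authors' steps behind it are not stated.

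Control spots (1377) and outlier spots were left out. Background was corrected by normexp with an offset of 50, loess was applied within and Aquantile between arrays, and each channel was treated as a sample (limma 3.58.1 and statmod 1.5.0, R 4.3.3). Loess makes the 2 samples of an array alike on average. The fit had genotype and dye as terms and the array as a random block (correlation 0.00838). A probe was kept when well above background in at least 4 of 8 samples, the brightest probe stood for a gene, and p-values were adjusted by Benjamini-Hochberg over 19720 genes. The fit was tested on simulated data. All arrays were on 1 slide, so slide is no batch here. Each array held 1 genotype, so an effect of the array or its position on the slide is mixed with the genotype difference. The random block does not remove such an effect. With a correlation of 0.00838, the fit treated the 2 samples of an array as nearly independent.

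Genes were named in the text by rule: the 4 smallest p-values and the 2 highest mean levels in each of complexes I, III, IV and V, all of complex II, the 7 core subunits of complex I, the complex IV isoform pairs, the subunit c genes, the 2 smallest p-values among assembly factors and related members, and 2 in each pathway list. Others are said to be chosen after their values were seen, or are members given for completeness. The values of 1 core subunit gene are not reported here singly. The members and lists were chosen with earlier results of these data known. Alternatives changed the background correction, normalization, filter, probe choice, block, dye, grouping, threshold and variance model, used the value table, and left out each sample in turn. Gene symbols follow the array, and 27203 probes were matched to RefSeq by accession and 4055 by symbol. Figures and tables used Python 3.11.15 with pandas 2.3.3 and matplotlib 3.10.9.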

Additional observations from a re-analysis of the deposited data

Results flagged for a closer look

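The 4 samples of each genotype were screened for all members with complete values, the other named genes and the medians of the complexes. Of 198 such groups, 9 held a sample whose gap to its nearest neighbour took up most of the range of the group (Dixon's criterion). Chance flags about 1 in 20 groups. In wildtype replicate 4, Ndufs6 measured 15.392 (14.801 to 14.869 in the other wildtype samples), Cox6c 15.663 (15.043 to 15.133) and Cox7a2l 14.98 (14.687 to 14.713). In wildtype replicate 3, Ndufa4 measured 14.056, against 14.643 to 14.741. In wildtype replicate 1, Uqcrc2 measured 14.096 (14.015 to 14.023 in the others) and Ppargc1a 10.571 (10.828 to 10.879). In heterozygous replicate 3, Ndufs3 measured 14.543 (14.232 to 14.238 in the others) and Ndufb4 14.921 (14.595 to 14.644). In heterozygous replicate 4, Ndufaf2 measured 11.154, against 11.705 to 11.783.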

How the results depend on the processing

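Each of 24 other settings was compared with the values above, 8 of which left out 1 sample. In these settings 0 members passed the adjusted threshold (also at an adjusted p under 0.1), and the directions of Brd2, Uqcrc1, Uqcrb, Cox5a and Ndufc2 held. Over all genes, 1 passed with the mean of all probes and 1 with Cy5 samples only, in limma. The cause was not tested for any change below.

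Members higher at an unadjusted p under 0.05 numbered 3, and 1 with processed signals and Aquantile, and 0 each with processed signals centred on the 75th percentile, without normalization between arrays, in the value table, and with Cy3 or Cy5 samples only. They numbered 1 to 4 when 1 sample was left out, 1 without wildtype replicate 2. Members lower numbered 1, and 0 with either processed signals, with offset 10, without normalization between arrays, with Cy3 only and with a variance trend. They numbered 2 without the filter, with the mean of all probes, without the array block, with the replicate block and without the dye term, and 4 in the value table. They numbered 0 to 9 when 1 sample was left out, 9 without heterozygous replicate 3.

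The median of all members turned to -0.02 without wildtype replicate 3 and -0.05 without heterozygous replicate 3. The median of complex I was -0.10 with the 75th percentile, -0.20 in the value table, 0.19 with Cy3 only and -0.12 with Cy5 only. That of complex II was 0.15 without normalization between arrays, where the median of all genes moved from -0.02 to 0.09. Complex III stood at -0.20 in the value table and 0.16 with Cy3 only, and complex IV at -0.14 in the value table, 0.38 with Cy3 only and -0.0205 with Cy5 only. Complex V stood at -0.13 with the 75th percentile, -0.25 in the value table and -0.10 with Cy5 only. Leaving out 1 sample gave -0.0366 to 0.340 in complex IV and -0.0935 to 0.0447 in complex V, the lowest without heterozygous replicate 3.

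Of 60 named genes other than Brd2, 32 kept their sign in every setting run for them and 28 took the other sign in at least 1. Of these, 23 had a difference no larger than its SE, among them Sdhd, Cox6a1, Atp5h, Uqcrq and Cox8a. The other 5 turned sign in 1 setting each: Ndufa4 to -0.0193 in the value table, Atp5j to 0.00031 with processed signals and Aquantile, Ndufs8 to 0.0221 with Cy5 only, Cycs to 0.13 with the mean of all probes and ND3 to 0.16 with Cy3 only. Same-numbered samples share a dye. Their deviations correlated at 0.116 to 0.21 with the dye left in. With the dye removed they correlated at 0.165, -0.29, -0.184 and -0.25. The former values include the dye, and removing a dye term fitted over both genotypes pushes the latter down. Whether the numbers pair the samples therefore cannot be told from either. The replicate block left 0 genes past the threshold and moved the count of lower members from 1 to 2. The number of arrays limits the precision, and Cy3 samples had fewer spots above background.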
